A study of Homo sapiens with 6 samples.

Results

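The solute carrier (SLC) genes encode the largest superfamily of membrane transporters, and their transcripts were compared between 2 established cell lines from human glioblastoma, T98G and U87MG. A gene was a member if a probe set of the array had that gene as its only listed symbol and the symbol began with SLC and a number, and each gene was represented by its brightest probe set over the 6 arrays. This gave 238 SLC genes from 52 subfamilies among the 11963 genes measured, out of 365 SLC probe sets. Of the 238, 235 are protein-coding, 2 are pseudogenes (SLC19A4P and SLC26A10P) and 1 is a long non-coding RNA (SLC67A1-AS). SLC2A4RG and SLC4A1AP carry the name of a transporter without being one, and are counted by name in subfamilies SLC2 and SLC4. Each line had 3 Affymetrix arrays of total RNA, from cells kept in DMEM with fetal bovine serum, glutamine, penicillin and streptomycin, and the labels name no treatment and no gene alteration for any array. They call U87MG resistant to apoptosis caused by bortezomib, which inhibits the proteasome, or by G5, which inhibits ubiquitin isopeptidases, and sensitive to necrosis caused by G5. T98G is the line that both inhibitors drive into apoptosis and that partly withstands G5 necrosis. Each group is therefore a single cell line, and any difference is one between these lines and not between sensitive and resistant tumours. The labels do not say whether the arrays of a line came from separate cultures, so p-values measure the spread between these arrays, which may be technical.

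Solute carriers move small molecules across membranes, either down their own gradients or coupled to the gradients of sodium, protons or another solute. The SLC number gives the subfamily, which largely follows sequence and often substrate: SLC2 holds the facilitative glucose carriers, SLC7 amino acid exchangers, SLC12 the cation and chloride cotransporters, SLC25 the carriers of the inner mitochondrial membrane, and SLC30 and SLC39 the zinc exporters and importers. In glioma, carriers are best known for glucose uptake, for glutamate release through the cystine and glutamate exchanger, and for chloride transport that sets cell volume. Here the subfamilies were placed in 13 groups by substrate, with 9 genes in subfamilies outside them.

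Levels are log2 array values, given for replicates 1, 2 and 3 of each line, and differences are U87MG minus T98G on the log2 scale. Levels of different genes cannot be set against each other on these arrays, since each probe set responds differently. Across probe sets, r was 0.990 to 0.997 between replicates and 0.934 to 0.939 between a T98G and a U87MG array. U87MG replicate 3 had the lowest mean over the poly-A labelling controls, 5.38 against 6.11 to 6.83 on the other 5 arrays. Without that array 18 SLC genes were called higher and 22 lower in U87MG, against 15 and 23 with all arrays, as SLC25A23 lost its call and SLC16A7, SLC26A4 and SLC35G2 gained one. Control probe sets with no matching transcript reached up to 4.03. VIM (14.54 to 14.89) and CD44 (13.59 to 13.98), which glioma lines are known to express, were bright on all 6 arrays. Neural stem cell marker NES was higher in U87MG by 2.55. The other glial and glioma markers were dim, with GFAP at 6.38 to 6.56, SOX2 at 5.91 to 6.43, OLIG2 at 5.41 to 6.01, AQP4 at 4.41 to 4.72 and S100B at 4.04 to 4.32. All 8 leucocyte, endothelial, epithelial and hepatocyte markers stayed between 3.83 and 6.35, and only EPCAM among them differed past an adjusted p of 0.05 (0.89 higher in U87MG). The arrays read RNA pooled from many cells, so fewer cells with a transcript and less of it per cell cannot be told apart.

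A gene was called when its limma adjusted p was under 0.05 and the lines differed at least 2-fold. Among the 238 SLC genes, 15 were called higher and 23 called lower in U87MG. The 38 called genes are 16% of the SLC genes, against 13.6% called among all 11963 genes. Those called higher made 6.30% against 6.56% of all genes, and those called lower made 9.66% against 7.01%. Arrays of the lines did not overlap for 124 SLC genes, or 52.1%, against 52% of all genes. At any fold, 41 SLC genes lay higher and 55 lower past the adjusted p, together 40.3%, against 41.3% of all genes. All of these shares lie near the background, and the median absolute difference was 0.26 for the SLC genes as for all genes. The solute carriers as a whole thus gave no share far from that of the genes at large, and what follows is about which of them differed. The ABC transporters, the other large family of membrane transporters, had 3 genes called higher and 4 lower of 35, and the difference between the families was not tested.

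**Figure D1:**
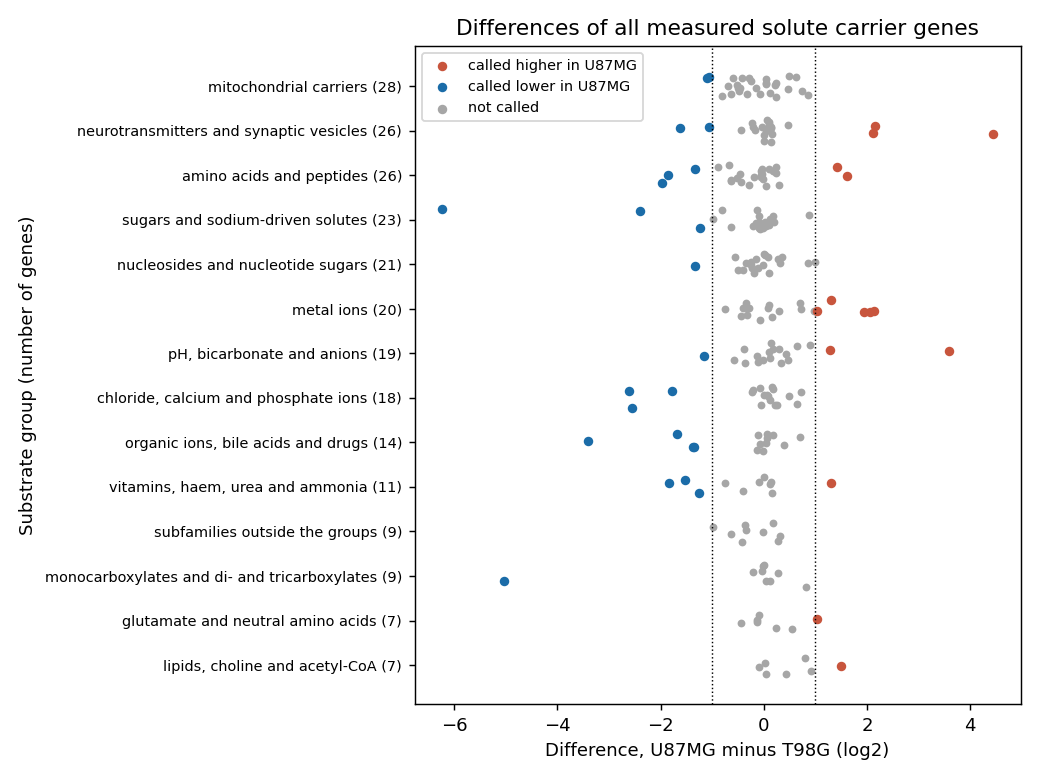
Each point is 1 of the 238 SLC genes, placed by its difference between the lines (x axis, log2, U87MG minus T98G) within its substrate group (y axis, number of genes in brackets). Red points are called higher and blue points called lower in U87MG, grey points are not called, and dotted lines mark a 2-fold difference. The 5 called metal ion carriers all lie to the right, and the 4 called carriers of organic ions and the 3 called carriers of chloride, calcium and phosphate all lie to the left.

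Differences were spread over 24 subfamilies with at least 1 called gene. The metal ion carriers had 5 genes called higher and 0 lower of 20. Carriers of organic ions, bile acids and drugs had 0 higher and 4 lower of 14, those of chloride, calcium and phosphate 0 higher and 3 lower of 18, and sugars and sodium-driven solutes 0 higher and 3 lower of 23. Vitamins, haem, urea and ammonia had 1 higher and 3 lower of 11. Amino acid and peptide carriers had 2 higher and 3 lower of 26, and neurotransmitter and vesicle carriers 3 higher and 2 lower of 26. The remaining groups had at most 3 called genes each. Group medians ran from -0.20 for the mitochondrial carriers to 0.43 for lipid, choline and acetyl-CoA carriers, beside -0.01 for all genes, and the 9 genes outside the groups had a median of -0.34. Among all genes 6.56% were called higher and 7.01% called lower. These groups were drawn up with results of these data known, and the counts and medians are descriptions without a test.

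Among the sugar carriers, 3 members of the glucose transporter subfamily SLC2 were called lower in U87MG (27.3%, against 7.01% of all genes). None of its 11 measured genes was called higher. The 11 include SLC2A4RG, which is not a transporter and was not called, at -0.64. The largest difference of any SLC gene was that of SLC2A10, which encodes the facilitative carrier GLUT10. SLC2A10 read 9.86, 9.79 and 10.71 in T98G and 3.80, 4.18 and 3.67 in U87MG. The groups lay far apart, and 2 of the 3 U87MG arrays were under the level reached by controls with no matching transcript. With those arrays set to that level, the transcript was at least 65.5-fold lower in U87MG (fitted difference -6.23, SE 0.24, adjusted p = 4.11e-08). SLC16A4, a member of the monocarboxylate transporter subfamily, was the next largest. Its levels were 9.69, 9.01 and 9.01 in T98G and 4.40, 4.18 and 4.01 in U87MG, at least 32.7-fold lower (difference -5.04, SE 0.19, adjusted p = 4.02e-08). One U87MG array fell under the control level for this gene. Both genes thus went from a clear signal in T98G to a reading near the bottom of the array in U87MG. The 250 bases before the RefSeq transcription start of these genes (assembly GRCh38.p14) are printed because they are the promoters of the carriers with the largest contrast, and they differ in base composition. Capitals mark CG dinucleotides, the sites where DNA can be methylated. SLC2A10 (chr20:46709399-46709648, plus strand) has 22 of them and SLC16A4 (chr1:110391027-110391276, minus strand) has 2. Over all 35116 promoter entries the quartiles of this count were 3, 11 and 23. DNA methylation was not measured, and the count is a description of the sequence.
SLC2A10: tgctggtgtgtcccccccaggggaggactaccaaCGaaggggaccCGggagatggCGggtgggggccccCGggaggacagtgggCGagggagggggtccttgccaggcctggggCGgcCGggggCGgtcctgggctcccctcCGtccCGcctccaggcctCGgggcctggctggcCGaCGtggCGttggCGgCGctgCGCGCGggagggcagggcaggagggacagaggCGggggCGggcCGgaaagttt
SLC16A4: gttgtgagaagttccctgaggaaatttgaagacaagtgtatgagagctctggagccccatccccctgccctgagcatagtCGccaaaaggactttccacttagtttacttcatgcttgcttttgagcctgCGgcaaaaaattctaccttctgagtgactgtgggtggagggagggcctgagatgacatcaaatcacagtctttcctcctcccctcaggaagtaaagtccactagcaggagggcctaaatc

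SLC2A1, which encodes GLUT1, the main glucose carrier of most dividing cells and of the blood-brain barrier, read 10.89, 10.94 and 10.97 in T98G and 8.72, 8.40 and 8.48 in U87MG. It was 5.29-fold lower in U87MG (difference -2.40, SE 0.11, adjusted p = 1.43e-07), with no overlap, and its second probe set differed by -1.85. The neuronal-type glucose carrier GLUT3, encoded by SLC2A3, lay in the opposite direction but under the 2-fold limit. SLC2A3 read 8.71, 8.26 and 8.49 in T98G and 9.24, 9.36 and 9.47 in U87MG, a difference of 0.87 (95% interval 0.57 to 1.17, adjusted p = 0.000527), and its 3 probe sets ranged from 0.83 to 0.87. SLC2A11, a GLUT11 carrier that takes fructose and glucose, was 2.37-fold lower, with levels of 7.22 to 7.44 in T98G and 5.93 to 6.23 in U87MG. SLC37A4, which moves glucose 6-phosphate into the endoplasmic reticulum, differed by -0.80 without reaching 2-fold. SLC5A3, the sodium-coupled importer of myo-inositol, came within rounding of the limit at -0.99 (95% interval -1.34 to -0.65), and its other 2 probe sets, at -1.19 and -1.24, were past it. Of the 10 matched genes for glucose phosphorylation and lactate production, 0 were called. HK2, the inducible hexokinase, differed by 0.96 (adjusted p = 0.000537) and PFKFB3, which makes the activator of phosphofructokinase, by 0.68 (adjusted p = 0.00037), both toward U87MG. Of the rest of that list, HK1 at 0.49 and LDHB at -0.44 also passed the adjusted p without reaching 2-fold, in opposite directions. Among the 9 carriers of mono-, di- and tricarboxylates, SLC16A4 was the only gene called. SLC16A7, which encodes the high-affinity monocarboxylate carrier MCT2, depended on a single array. Its U87MG levels were 9.82, 10.21 and 8.18, its difference was 0.81 (95% interval -0.19 to 1.80, adjusted p = 0.186), and without U87MG replicate 3 it was 1.42 and called. SLC16A7 was picked out after its values were seen.

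**Figure D2:**
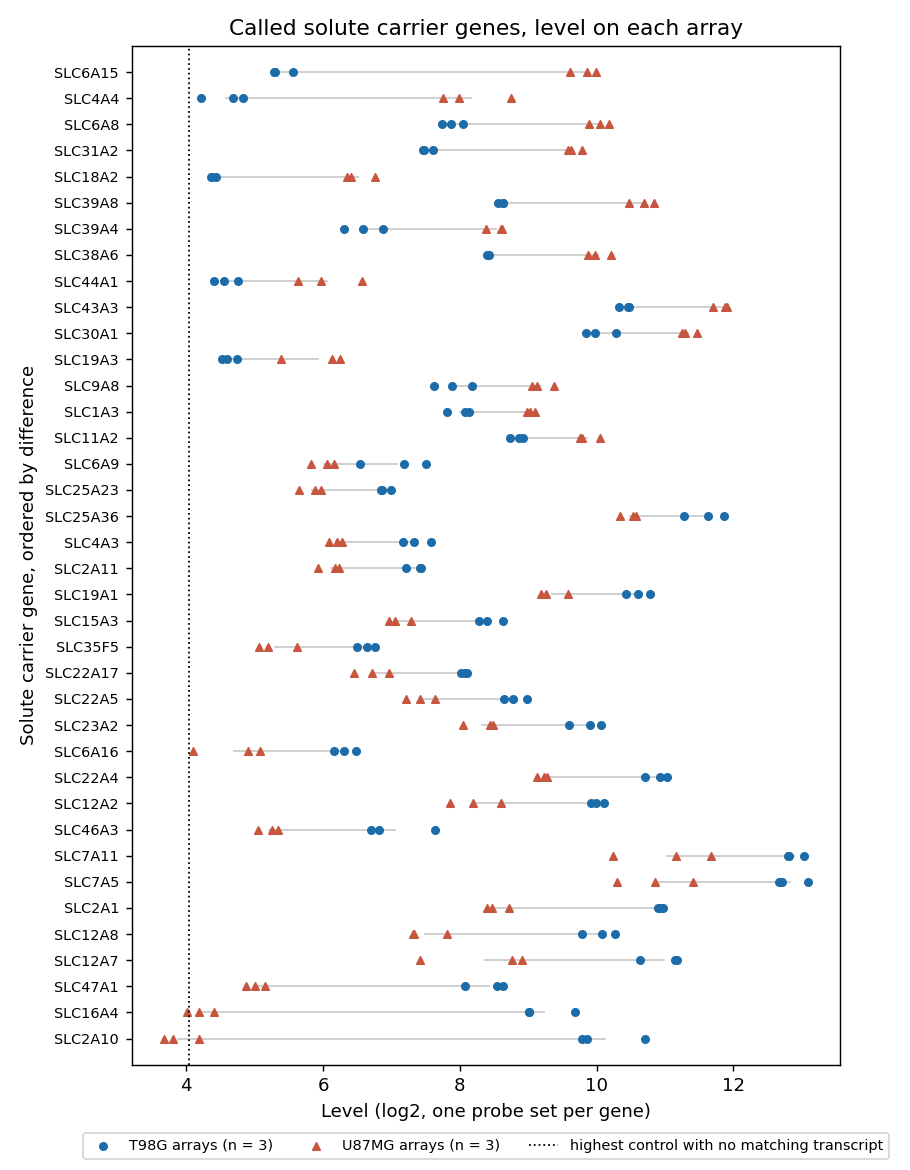
Levels (x axis, log2) of the 38 called SLC genes (y axis, ordered by difference) on each array, with circles for the 3 T98G arrays and triangles for the 3 U87MG arrays. Grey lines join the means of the lines, and the dotted line marks 4.03, the highest value of controls with no matching transcript. Circles and triangles do not overlap for any of the 38 genes, which the rule for a call nearly ensures. Arrays of the lines did not overlap for 52% of all genes. Only SLC2A10 and SLC16A4 have an array left of the dotted line.

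In the amino acid exchanger subfamily SLC7, 2 of 10 genes were called lower in U87MG (20%, against 7.01% of all genes) and 0 higher. SLC7A11 encodes xCT, which imports cystine for glutathione synthesis in exchange for glutamate. It read 12.80, 12.82 and 13.04 in T98G and 11.68, 11.17 and 10.25 in U87MG, 3.62-fold lower (difference -1.86, SE 0.29, adjusted p = 0.000672), and all 3 of its probe sets were called, at -1.86 to -2.36. SLC7A5, the leucine-importing carrier LAT1, read 12.72, 13.09 and 12.67 in T98G and 11.41, 10.86 and 10.30 in U87MG, 3.92-fold lower (difference -1.97, SE 0.24, adjusted p = 0.00014). Both genes had their lowest reading on U87MG replicate 3, the array with the lowest labelling controls, and a wider spread in U87MG than in T98G. Without that array SLC7A11 differed by -1.46 and SLC7A5 by -1.69, and both were still called. Other exchangers of the subfamily, SLC7A8 and SLC7A6, differed by -0.04 and -0.01 on their brightest probe sets and were not called. Their other probe sets were not called either, at -0.34 to 0.33 for SLC7A8 and at -0.36 and -0.22 for SLC7A6. SLC3A2, which encodes the heavy chain CD98 that both exchangers need to reach the cell surface, read 12.07 ± 0.17 in T98G and 11.19 ± 0.05 in U87MG (SD, n = 3). Its difference of -0.88 (95% interval -1.13 to -0.63, adjusted p = 0.00017) was in the same direction and under 2-fold. SLC15A3, a lysosomal carrier of histidine and small peptides, was 2.52-fold lower, with 8.28 to 8.63 in T98G and 6.97 to 7.29 in U87MG. In the other direction SLC43A3, a carrier of purine nucleobases in a subfamily otherwise known for amino acids, read 10.32 to 10.47 in T98G and 11.70 to 11.91 in U87MG. It was 2.66-fold higher on the brighter of 2 probe sets that were both called. SLC38A6, a member of the sodium-coupled neutral amino acid subfamily, was 3.05-fold higher, with 8.40 to 8.43 in T98G and 9.88 to 10.22 in U87MG.

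Other carriers of the amino acid supply showed small differences or none that passed. SLC38A2, the glutamine and alanine importer SNAT2 that cells raise on amino acid shortage, differed by -0.68 (95% interval -0.95 to -0.42). SLC38A1, a glutamine importer of the same subfamily, differed by 0.24 (95% interval -0.07 to 0.54), and SLC7A1, the arginine and lysine carrier CAT1, by 0.18 (95% interval -0.09 to 0.45), a sign that turned on another choice of probe sets. For SLC38A1 and SLC7A1 the intervals include 0 and stay well under a 2-fold difference.

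In the glutamate subfamily SLC1, 1 of 7 genes was called. SLC1A3, which encodes the astrocytic glutamate importer GLAST, read 8.13, 7.81 and 8.07 in T98G and 9.03, 9.11 and 8.98 in U87MG. It was 2.05-fold higher in U87MG (difference 1.04, SE 0.11, adjusted p = 6.23e-05), just past the limit, and at 0.94 it was under 2-fold without T98G replicate 2. The other glial glutamate importer SLC1A2, or GLT-1, differed by -0.10 (95% interval -0.43 to 0.23), and the neuronal and epithelial SLC1A1 by 0.23 (95% interval -0.18 to 0.64). The neutral amino acid exchangers of the subfamily, SLC1A4 and SLC1A5, lay in opposite directions, at 0.54 (95% interval 0.24 to 0.84) and -0.45 (95% interval -0.70 to -0.19), and neither reached 2-fold. SLC1A5 is the ASCT2 glutamine carrier.

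Enzymes that use the solutes of these carriers were looked at through lists of partner genes. In a list of 5 matched genes of glutathione synthesis and breakdown, 0 were called higher and 3 lower. Among all genes 6.56% were called higher and 7.01% lower. GCLC, the catalytic subunit of the rate-limiting ligase, was 4.80-fold lower in U87MG (difference -2.26), and GCLM, its regulatory subunit, was 2.55-fold lower (-1.35). GGT5, a transferase that splits extracellular glutathione conjugates, was 3.73-fold lower (-1.90). GCLC, GCLM and GGT5 thus lay on the same side as SLC7A11, the cystine importer. The other 2 matched genes lay toward U87MG and were not called, GSS at 0.35 (adjusted p = 0.0281) and CHAC1 at 0.41 (adjusted p = 0.397). Among 13 matched enzymes of glutamate, glutamine and serine metabolism, only GLUL, the glutamine synthetase, was called, at 2.36-fold lower. Of 15 transcription factors known to act on carrier genes, 1 was called. NFE2L2, which encodes NRF2, an activator of SLC7A11 and of the glutamate-cysteine ligase genes, read 12.32, 12.18 and 12.45 in T98G and 10.96, 10.63 and 9.95 in U87MG, 3.49-fold lower (adjusted p = 0.000132). NFE2L2, GCLC and GCLM, like SLC7A11, all had their lowest reading on U87MG replicate 3. Past the adjusted p but under 2-fold, 7 factors of this list lay higher and 3 lower in U87MG. ATF4, which activates amino acid carriers under stress, was among the lower ones, at -0.58. The higher ones included TFE3 at 0.99, DDIT3 at 0.73 and ATF3 at 0.52. These lists were made with results of these data known.

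Metal ion carriers had a median difference of 0.13 and were called in 1 direction only. In U87MG 5 of 20 (25%) were called higher, against 6.56% of all genes. Zinc importers SLC39A8 and SLC39A4 and the zinc exporter SLC30A1 were all among them. SLC39A8 encodes ZIP8, which also carries manganese, iron and cadmium. It read 8.63, 8.56 and 8.63 in T98G and 10.83, 10.69 and 10.48 in U87MG, 4.17-fold higher (difference 2.06, SE 0.11, adjusted p = 5.36e-07). SLC39A4, the intestinal zinc importer ZIP4, read 6.88, 6.30 and 6.58 in T98G and 8.62, 8.38 and 8.60 in U87MG, 3.86-fold higher (difference 1.95, SE 0.15, adjusted p = 5.75e-06). SLC30A1, or ZnT1, which exports zinc across the plasma membrane, read 9.84, 10.28 and 9.98 in T98G and 11.29, 11.47 and 11.26 in U87MG, 2.47-fold higher (difference 1.30, SE 0.13, adjusted p = 3.53e-05). These 3 genes were the only ones called among the 15 measured of subfamilies SLC30 and SLC39. SLC31A2, a copper carrier of intracellular membranes known as CTR2, showed the largest difference of the group. It read 7.47, 7.48 and 7.61 in T98G and 9.78, 9.58 and 9.62 in U87MG, 4.41-fold higher (difference 2.14, SE 0.10, adjusted p = 2.02e-07). SLC11A2, the divalent metal transporter DMT1 that carries iron out of endosomes and across the gut, was at the limit, with 8.74 to 8.93 in T98G and 9.76 to 10.05 in U87MG, 2.03-fold higher. Only its brightest of 4 probe sets was called, and leaving out T98G replicate 2 or U87MG replicate 2 brought the difference to 0.97 or 0.93.

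The rest of the metal carriers did not move as a block. Past the adjusted p but under 2-fold, 3 lay higher and 3 lower in U87MG. The lower ones were all zinc carriers, SLC30A5 at -0.76, SLC39A6 at -0.40 and SLC39A1 at -0.34, and the higher ones were SLC30A9 at 0.72, SLC39A9 at 0.69 and SLC41A3. Dimmer probe sets differed by 0.13 for SLC30A5 and by 0.30 and -0.23 for SLC39A9, none past the adjusted p. For SLC39A6 the dimmer probe set was at -0.63. SLC41A3, a magnesium carrier, differed by 0.98 (95% interval 0.67 to 1.28). SLC39A14, or ZIP14, an importer of zinc and non-transferrin iron, differed by 0.29 (95% interval 0.04 to 0.53, adjusted p = 0.0612). Of 13 matched genes for iron, zinc and copper handling, 1 was called higher and 3 lower (7.69% and 23.1%, against 6.56% and 7.01% of all genes). STEAP3, the endosomal reductase that feeds DMT1 with ferrous iron, was 2.02-fold higher, in the same direction as SLC11A2. CP, which encodes the copper-carrying ferroxidase ceruloplasmin, read 8.39, 8.28 and 8.58 in T98G and 4.42, 4.43 and 4.95 in U87MG, 14.1-fold lower. Both copper-exporting ATPases were lower, ATP7A 3.19-fold and ATP7B 2.69-fold. SLC31A1, the copper importer CTR1 of the plasma membrane and the other gene of its subfamily, differed by -0.33 (95% interval -0.64 to -0.03, adjusted p = 0.0803), opposite in sign to SLC31A2. The zinc sensor MTF1 and its target MT2A differed by 0.30 and 0.29, well under 2-fold.

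**Figure D3:**
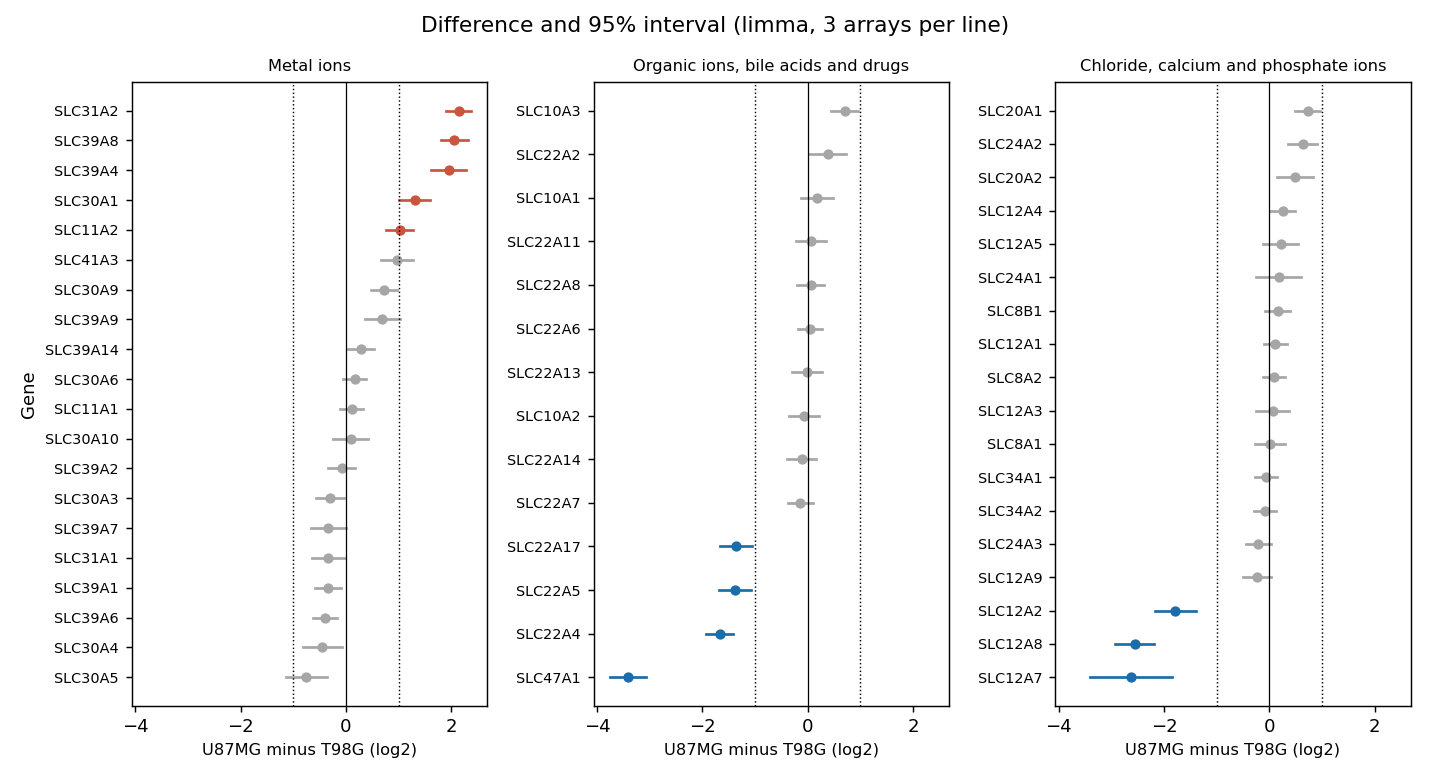
Differences (x axis, log2, U87MG minus T98G) of every measured gene (y axis) in 3 substrate groups, picked after their values were seen, with points for the limma estimate and bars for its 95% interval. Red is called higher in U87MG, blue called lower, grey not called, and dotted lines mark 2-fold. A call needs at least 2-fold, so coloured points lie beyond the dotted lines by that rule. The 5 called metal carriers are all higher in U87MG, and the called organic ion and chloride carriers are all lower. Grey genes lie between -1 and 1.

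Cation and chloride cotransporters of subfamily SLC12 had 3 genes called lower (37.5%, against 7.01% of all genes) and 0 higher of 8. These 3 made up all the called genes of the chloride, calcium and phosphate group. SLC12A2 encodes NKCC1, which loads cells with chloride together with sodium and potassium. It read 9.92, 10.10 and 9.99 in T98G and 8.20, 8.60 and 7.85 in U87MG, 3.45-fold lower (difference -1.79, SE 0.17, adjusted p = 2.51e-05). SLC12A7 encodes KCC4, which runs the opposite way and lets potassium and chloride out. It read 11.15, 10.63 and 11.17 in T98G and 7.41, 8.77 and 8.90 in U87MG, 6.15-fold lower (difference -2.62, SE 0.35, adjusted p = 0.000211), with its lowest reading on U87MG replicate 1. SLC12A8 read 10.27, 9.79 and 10.08 in T98G and 7.81, 7.31 and 7.33 in U87MG, 5.90-fold lower (difference -2.56, SE 0.17, adjusted p = 1.78e-06). A chloride importer and a chloride exporter were thus lower together, while the other 5 genes of the subfamily lay between -0.23 and 0.25. SLC20A1, the phosphate importer PiT1, differed by 0.73 (95% interval 0.49 to 0.96) toward U87MG. Among 8 matched genes in a list of kinases, ligases and other regulators of carriers, 2 were called. SGK1, which raises the surface level of many carriers, was 2.11-fold higher, and TXNIP, which lowers GLUT1 at the surface, read 8.97, 9.60 and 9.64 in T98G and 10.53, 11.47 and 10.50 in U87MG, 2.70-fold higher (adjusted p = 0.00191).

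Carriers of pH and bicarbonate had 2 genes called higher and 1 lower of 19, a number that includes SLC4A1AP by its name. SLC4A4, the sodium and bicarbonate cotransporter NBCe1 of astrocytes and kidney, read 4.69, 4.22 and 4.82 in T98G and 7.76, 8.74 and 7.98 in U87MG. It was 12.0-fold higher in U87MG (difference 3.58, SE 0.25, adjusted p = 2.52e-06) on its brightest probe set, while its other 3 probe sets differed by 0.89, 0.77 and 0.21 and were not called. All 4 lay toward U87MG, but they set very different sizes. SLC9A8, the sodium and proton exchanger NHE8 of the Golgi and plasma membrane, was 2.45-fold higher, with 7.62 to 8.18 in T98G and 9.06 to 9.37 in U87MG. SLC4A3, a chloride and bicarbonate exchanger of brain and heart, was 2.25-fold lower, with 7.17 to 7.58 against 6.09 to 6.27. SLC26A4, or pendrin, an anion exchanger, differed by 0.89 and did not reach 2-fold. Of 9 matched sodium pump genes, 0 were called, and all 9 encode beta subunits or FXYD modulators. No gene of the catalytic alpha subunit was among them, so the list does not cover that subunit. FXYD5, a modulator of the pump, differed by 0.58 (adjusted p = 0.00077), and FXYD6, another, by -0.55 (adjusted p = 0.0046). ATP1B1, a beta subunit, had the largest difference of the list, at -0.75 (adjusted p = 0.0133).

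Neurotransmitter-type carriers held some of the largest differences toward U87MG. SLC6A15, a sodium-coupled carrier of branched-chain amino acids and proline in neurons, read 5.56, 5.29 and 5.30 in T98G and 9.86, 10.00 and 9.61 in U87MG. It was 21.7-fold higher in U87MG (difference 4.44, SE 0.13, adjusted p = 1.01e-08), the largest difference toward U87MG of any SLC gene. SLC6A8, the creatine carrier, read 7.73, 7.87 and 8.04 in T98G and 9.89, 10.04 and 10.18 in U87MG, 4.46-fold higher (difference 2.16, SE 0.12, adjusted p = 5.53e-07), and its 3 probe sets were all called, at 1.09 to 2.16. SLC6A8 has near-identical copies in the genome, so its probe sets may also read those. SLC18A2, the vesicular monoamine carrier VMAT2, read 4.38, 4.43 and 4.37 in T98G and 6.35, 6.41 and 6.76 in U87MG, 4.34-fold higher (difference 2.12, SE 0.12, adjusted p = 7.71e-07). Its T98G arrays were all within 0.4 of the level that controls reach. SLC6A16, a carrier with no settled substrate, was 3.08-fold lower, with 6.16 to 6.48 in T98G and 4.10 to 5.07 in U87MG. SLC6A9, the glycine carrier GlyT1, read 7.19, 7.51 and 6.54 in T98G and 6.16, 5.82 and 6.06 in U87MG, 2.09-fold lower (difference -1.06, SE 0.22, adjusted p = 0.00313). It was under 2-fold at -0.85 without T98G replicate 2 and at -0.97 without U87MG replicate 2. SLC17A5, the lysosomal sialic acid carrier, had the smallest p among genes of the group that were not called, at 0.47.

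Organic ion carriers had 4 genes called lower (28.6%, against 7.01% of all genes) and 0 higher of 14. SLC47A1 encodes MATE1, which exports organic cations such as metformin in exchange for protons. It read 8.08, 8.54 and 8.63 in T98G and 4.87, 5.15 and 5.00 in U87MG, 10.7-fold lower (difference -3.41, SE 0.15, adjusted p = 1.21e-07). SLC22A4, or OCTN1, which takes up ergothioneine, read 10.71, 10.92 and 11.03 in T98G and 9.24, 9.28 and 9.13 in U87MG, 3.19-fold lower (difference -1.67, SE 0.11, adjusted p = 2.22e-06). SLC22A5, or OCTN2, the carnitine importer, read 8.77, 8.65 and 8.99 in T98G and 7.64, 7.42 and 7.21 in U87MG, 2.61-fold lower (difference -1.38, SE 0.14, adjusted p = 3.22e-05). These last genes are next to each other on chromosome 5. Of 10 pairs of SLC genes that neighbour each other among RefSeq protein-coding genes, this was the only pair with both genes called, and in the other 9 pairs neither gene was. SLC22A17, the receptor and carrier for the iron-binding protein lipocalin-2, read 8.02 to 8.11 in T98G and 6.46 to 6.97 in U87MG on its brighter probe set, 2.56-fold lower, and its dimmer probe set differed by 0.02. SLC10A3, of the bile acid carrier subfamily, differed by 0.70 and was not called. The 250 bases before the RefSeq starts of the neighbouring pair (GRCh38.p14, plus strand, chr5:132294144-132294393 for SLC22A4 and chr5:132369460-132369709 for SLC22A5) are shown because both genes were lower together. Capitals again mark CG dinucleotides, of which SLC22A4 has 25 and SLC22A5 has 27, both above the upper quartile of 23 over all promoter entries.
SLC22A4: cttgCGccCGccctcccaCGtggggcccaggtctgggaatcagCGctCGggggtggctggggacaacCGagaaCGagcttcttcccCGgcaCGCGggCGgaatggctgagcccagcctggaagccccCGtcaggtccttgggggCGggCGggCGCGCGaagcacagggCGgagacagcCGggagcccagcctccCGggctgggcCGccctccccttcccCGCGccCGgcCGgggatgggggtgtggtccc
SLC22A5: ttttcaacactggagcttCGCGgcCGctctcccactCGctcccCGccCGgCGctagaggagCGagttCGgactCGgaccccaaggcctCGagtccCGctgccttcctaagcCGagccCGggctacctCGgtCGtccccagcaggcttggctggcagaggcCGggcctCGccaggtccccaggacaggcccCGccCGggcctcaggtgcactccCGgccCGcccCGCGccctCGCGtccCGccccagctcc

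In the group of vitamins, haem, urea and ammonia, 3 of 11 genes were called lower (27.3%, against 7.01% of all genes) and 1 higher. SLC23A2, the vitamin C importer SVCT2, read 9.60, 9.91 and 10.06 in T98G and 8.05, 8.49 and 8.45 in U87MG, 2.89-fold lower (difference -1.53, SE 0.16, adjusted p = 3.81e-05), and its 3 probe sets ranged from -0.99 to -1.53. SLC19A1, the reduced folate carrier that also takes up methotrexate, read 10.43, 10.79 and 10.60 in T98G and 9.27, 9.58 and 9.19 in U87MG, 2.40-fold lower (difference -1.26, SE 0.14, adjusted p = 5.56e-05). Its other 3 probe sets were not called, at -0.32 to -0.88. SLC46A3, a lysosomal carrier, was 3.58-fold lower, with 6.70 to 7.64 in T98G and 5.04 to 5.34 in U87MG. SLC19A3, a thiamine carrier of the same subfamily as SLC19A1, lay the other way, at 4.60, 4.52 and 4.75 in T98G and 6.25, 6.14 and 5.38 in U87MG, 2.46-fold higher from a dim signal. SLC14A1, the urea carrier, differed by -0.76 and was not called. Among 7 lipid, choline and acetyl-CoA carriers, SLC44A1, a choline carrier, was the only gene called. SLC44A1 read 4.40, 4.76 and 4.55 in T98G and 5.63, 6.57 and 5.98 in U87MG, 2.81-fold higher (difference 1.49, SE 0.21, adjusted p = 0.000356). SLC27A5, a bile acid and long-chain fatty acid CoA ligase of liver, differed by 0.80 and stayed under 2-fold.

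The 28 mitochondrial carriers of subfamily SLC25 were the largest group, and 7.14% of them were called, against 13.6% of all genes. At any fold, 57.1% passed the adjusted p, against 41.3% of all genes. Arrays of the lines did not overlap for 67.9%, against 52%, and the median absolute difference was 0.46, against 0.26. Differences from these background shares were not tested. Past the adjusted p but under 2-fold, 5 lay higher and 9 lower in U87MG. SLC25A36, a pyrimidine nucleotide carrier, read 11.63, 11.27 and 11.86 in T98G and 10.53, 10.58 and 10.35 in U87MG, 2.15-fold lower (difference -1.10, SE 0.15, adjusted p = 0.000278), with all 3 probe sets called. It was under 2-fold, at -0.97, without T98G replicate 3. SLC25A23, a calcium-dependent exchanger of ATP-magnesium and phosphate, was 2.10-fold lower, with 6.85 to 6.99 in T98G and 5.65 to 5.97 in U87MG, and at -0.98 it was under 2-fold without U87MG replicate 3. SLC25A1, the citrate exporter that feeds fatty acid synthesis, differed by -0.81 (95% interval -1.14 to -0.48). SLC25A14, an uncoupling-type carrier, differed by 0.85 (95% interval 0.63 to 1.08). SLC25A5, an ADP and ATP exchanger of dividing cells, differed by 0.04 (95% interval -0.18 to 0.25), so that even a 1.5-fold difference lies outside its interval.

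In the nucleoside and nucleotide sugar group, 1 of 21 genes was called. SLC35F5 read 6.64, 6.76 and 6.50 in T98G and 5.62, 5.19 and 5.06 in U87MG, 2.53-fold lower (difference -1.34, SE 0.15, adjusted p = 7.6e-05). SLC35G2 came closest to a call on the other side, at 0.99 (95% interval 0.74 to 1.25, adjusted p = 8.04e-05). SLC29A1, the equilibrative nucleoside carrier ENT1 that also takes up nucleoside drugs, varied more between arrays than between lines. It read 9.76, 10.21 and 9.38 in T98G and 9.29, 9.98 and 10.15 in U87MG, a difference of 0.03 (95% interval -0.54 to 0.59). Of the 9 genes in subfamilies outside the groups, 0 were called, and SLC67A2 came closest, at -0.99.

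Close to the 2-fold limit the calls turned on small differences. Just inside it were SLC11A2 at 1.02, SLC1A3 at 1.04, SLC6A9 at -1.06 and SLC25A23 at -1.07, and just outside it were SLC35G2 at 0.99, SLC5A3 and SLC67A2 at -0.99 and SLC41A3 at 0.98. At the other end, 12 SLC genes differed more than 4-fold and 5 more than 10-fold. Those 5 were SLC2A10, SLC16A4 and SLC47A1 toward T98G and SLC6A15 and SLC4A4 toward U87MG. On all 6 arrays, 14 SLC genes read under the control level, where a difference could not be seen.

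Several probe sets of a gene give a check within the array. Of the 38 called genes, 27 had 1 probe set and 11 had several. All probe sets were called the same way in 5 of the 11, namely SLC2A1, SLC7A11, SLC25A36, SLC6A8 and SLC43A3. In the other 6, SLC11A2, SLC19A1, SLC22A17, SLC23A2, SLC39A8 and SLC4A4, at least 1 probe set was not called. SLC39A8 had 2 probe sets called, at 2.06 and 1.70, and 2 dim ones at 0.09 and 0.15. No gene had probe sets called in opposite directions. In 4 genes that were not called, picked out after their values were seen, a dimmer probe set was. These were SLC4A7, a bicarbonate carrier, at -1.13 and -1.61 beside -0.39 on the brightest, SLC5A3, SLC25A12, a mitochondrial aspartate and glutamate exchanger, at 1.16 beside 0.48, and SLC35A3, a nucleotide sugar carrier, at 1.09 beside 0.28.

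**Figure D4:**
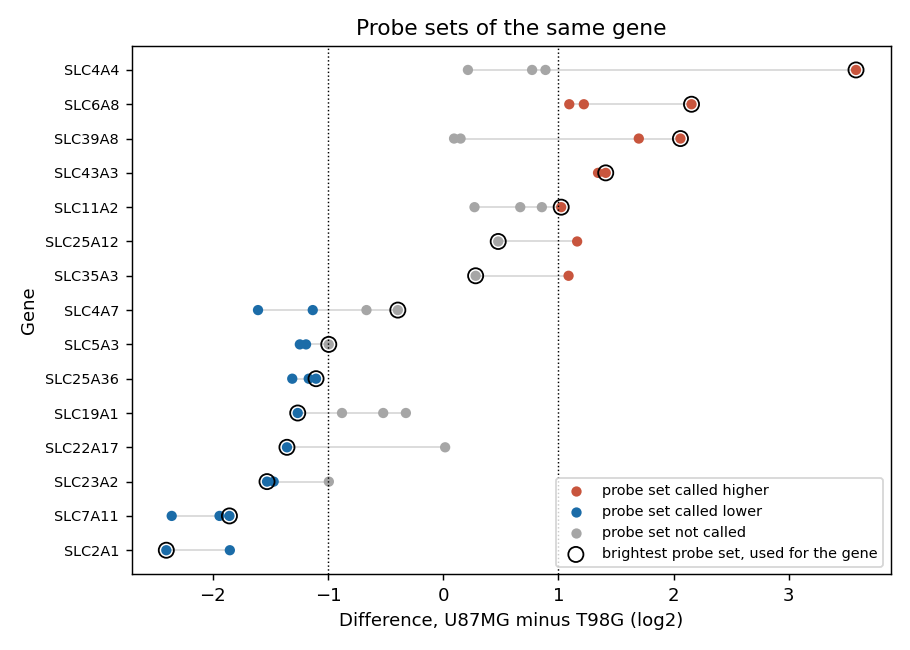
Differences (x axis, log2, U87MG minus T98G) of every probe set of the 15 SLC genes (y axis) that have several probe sets and at least 1 of them called. Filled points are coloured by call (red higher, blue lower, grey not called), the open black ring marks the brightest probe set, which stands for the gene, and dotted lines mark 2-fold. SLC4A4 spreads from 0.21 to 3.58, while the 2 points of SLC43A3 nearly coincide at 1.34 and 1.41, and no gene has red and blue points together.

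Proteins that carry SLC transporters to the membrane or anchor them there gave 1 called gene of 7 matched. NHERF2, a scaffold for sodium and proton exchangers, was 2.23-fold lower in U87MG (difference -1.16). BSG, or basigin, which escorts the monocarboxylate carriers to the surface, differed by 0.87 (adjusted p = 0.000316), under 2-fold and toward U87MG.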

How the data were processed

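Transcripts of T98G and U87MG cells were measured on 6 Affymetrix arrays, 3 per line, grouped by the line in the labels. Probe set values were deposited on a log2 scale, after RMA per the submitters' processing notes, which also name limma. Versions and settings are not given in the sources used here. Background subtraction and equalised distributions, both steps of RMA, can hide a difference in total RNA and shrink differences of dim transcripts. Values lay between 2.90 and 14.9, and the medians of the arrays between 7.55 and 7.65. Arrays give no read depth, and their number limits the precision (median residual SD 0.146).

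Of 22277 probe sets, 19064 had 1 symbol in the platform annotation, 1043 had several, 2108 none and 62 were controls. Current symbols came from the RefSeq table of GRCh38.p14, matched by Entrez identifier for 19052. Each of 11963 genes was represented by its brightest probe set. Of the 238 SLC genes, 194 had a RefSeq promoter entry.

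The test was two-sided, from lmFit and eBayes of limma 3.58.1 (R 4.3.3), with 4 residual degrees of freedom and Benjamini-Hochberg adjustment over 11963 genes. Calls needed an adjusted p under 0.05 and a difference of 2-fold or more. In simulated data for this comparison of 11963 genes, 97 of 100 genes with a true log2 shift of 1.5 were called, as were 100 of 100 with a shift of 3, beside 1 false call. The simulated noise was independent for each gene, with no effect shared by an array, and the 2-fold limit itself keeps false calls few. Far fewer genes were shifted than the 41.3% that passed the adjusted p in the data. The simulation thus checks the fit and not the reliability of the calls made here.

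The members, substrate groups and lists were chosen with earlier results of these data known. Named genes were every called SLC gene, the gene with the smallest p among those not called in each group, a list of 30 well-known carriers of which 25 were matched, and the called genes of each partner list (or the 2 with the smallest p). Other names are given with that remark or as values beside these. Alternatives were other thresholds, limma's treat against 1.5-fold, a filter on dim probe sets (mean over 7.63 in a line), averaging the probe sets of a gene, removal of multiply matching probe sets, repeated normalization, an intensity trend with robust variance, a replicate block, and each array left out.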

Additional observations from a re-analysis of the deposited data

How the results depend on the processing

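The counts of 15 SLC genes called higher and 23 called lower in U87MG stayed within 1.5 times of these values under every alternative run except the removal of the fold limit. With no minimum fold, 41 were higher and 55 lower. Of the 38 called genes, 31 kept their call under every alternative to the processing and every left-out array in which they had a value, and 33 kept it in each of the 6 fits with an array left out. Leaving out 1 array gave 13 to 18 higher and 22 to 24 lower. The filter on dim probe sets left 10 called genes without a value, and the removal of multiply matching probe sets left 8.

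With the replicate block, 15 were higher and 23 lower. Deviations of arrays with the same number correlated at 0.154, 0.068 and 0.045 across genes, and those with unlike numbers at -0.120 to 0.056. The labels do not say that equal numbers were handled together, and the numbers were not taken as pairs. Whether they share a batch was not tested.

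Calls were lost when the probe sets of a gene were averaged for SLC11A2 (0.71), SLC19A1 (-0.75) and SLC22A17 (-0.67), without multiply matching probe sets for SLC11A2 (0.67), and by treat for SLC6A9 (adjusted p = 0.17). The direction turned for SLC7A1 with the mean of probe sets (-0.014) and without multiply matching probe sets (-0.40), and for SLC29A1 without multiply matching probe sets (-0.0071). With 1 array left out, SLC29A1 ranged from -0.17 to 0.29, and SLC1A2 from -0.26 to 0.039. SLC7A1, SLC29A1 and SLC1A2 were not called in any of these fits. The cause of these changes was not tested. Dim signals limit what can be seen for the 14 SLC genes under the control level on all arrays.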

Other observations

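Of the probe sets on the arrays, 11 list an SLC gene together with another symbol and entered no comparison above, since their signal cannot be assigned to 1 gene. For 6 of the 11 the arrays of the lines did not overlap, a share near the 52% of all genes. A pair of these probe sets lists SLC2A3 with its near-identical neighbour SLC2A14. They read 7.89 ± 0.15 and 7.34 ± 0.06 in T98G and 8.86 ± 0.13 and 8.14 ± 0.12 in U87MG (SD, n = 3), differences of 0.97 and 0.80 that lie beside the 0.87 of the probe set for SLC2A3 alone. A probe set shared by SLC6A8 and its copies SLC6A10P and SLC6A10PB differed by 0.79, also toward U87MG. One shared by SLC26A6, an anion exchanger, and the microRNA gene MIR6824 read 8.53, 8.86 and 8.88 in T98G and 7.78, 8.07 and 8.09 in U87MG, a difference of -0.78. The largest absolute difference among the 11 was the 0.97 of the SLC2A3 and SLC2A14 probe set, under 2-fold.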
